A study of Mus musculus with 4 samples.

Results

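The BCL2 family was described through 10 genes: the anti-apoptotic members Bcl2, Bcl2l1 and Mcl1, the effectors Bax and Bak1, and the BH3-only members Bid, Bcl2l11, Pmaip1, Bad and Bmf. They were chosen by gene symbol, and each of the 10 matched 1 Ensembl identifier among the 20089 genes measured. RNA was sequenced from HT22 cells (strain C57BL/6), a line of immortalised neurons from mouse hippocampus, in 4 groups of 1 library each. The groups were cells infected with a lentivirus targeting Neat1 and kept in oxygen-glucose deprivation (OGD, used to model ischaemia in a dish), cells with the control negative lentivirus under OGD, cells with the Neat1 lentivirus in DMEM/F12 with 10% FBS (normal culture), and cells with the control lentivirus in normal culture. The labels name neither a duration of OGD nor the Neat1 sequence targeted, and all 4 groups carried a lentivirus, so no uninfected cells are among them. The questions are what lowering Neat1, the long noncoding RNA that scaffolds nuclear paraspeckles, does to the family in each culture, and what OGD does in each kind of cell.

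Proteins of the BCL2 family decide whether the outer mitochondrial membrane is opened during apoptosis. BAX and BAK form the pores, BCL2, BCL-XL (encoded by Bcl2l1) and MCL1 bind and restrain them, and BH3-only proteins either occupy the restrainers or activate the effectors. In neurons the balance between these classes is known as a control point of death after ischaemia, and much of it is set after transcription, by phosphorylation, cleavage and protein turnover that RNA levels do not show.

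Reads assigned to genes numbered between 17232866 and 20764430 per library. A level is given as CPM (the depth-scaled read count, with TMM normalisation), with an exact 95% Poisson interval in the plots. A change is a log2 ratio of such levels after adding 0.5 CPM to each, and a gene counted as higher or lower at a ratio of at least 2-fold, where the higher library held at least 20 reads. With 1 library per group there was no replicate spread and no test, so intervals of ratios (exact, 95%, computed without the added 0.5 CPM) cover counting error only. PCR copies could not be told from separate molecules. In the authors' deposited tables the adjusted p-value of every member was 1 in all 4 comparisons. Those tables too rest on 1 library per group, and the share of all genes at that value was not counted. The value is therefore not read as absence of change.

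The libraries differed in ways the labels do not name. Neat1 stood at 42.1 CPM in knockdown cells and 74.4 CPM in control cells under OGD (log2 ratio -0.81). In normal culture it stood at 121 CPM in knockdown cells and 193 CPM in control cells (-0.68). The target was thus lower with its lentivirus in both cultures, but by less than 2-fold. Under OGD it was lower than in normal culture, 2.87-fold in knockdown cells and 2.60-fold in control cells. The 12 neuron markers summed to 209, 82.5 and 32.4 CPM in knockdown OGD, control OGD and knockdown normal cells, and to 2006 CPM in control normal cells, and none was at 0 reads in any library. The 25 markers of glia, endothelium and blood summed to 159, 55.4, 55.6 and 425 CPM in the same order, with 1, 8, 6 and 1 of them at 0 reads. A list of 7 RNAs without a poly(A) tail took 0.344% of reads in the knockdown OGD library, against 4.81% in control OGD, 4.34% in knockdown normal and 1.82% in control normal cells. Each library stands alone for its group, so no comparison could be repeated without one, and the part of these differences in the members' values was not tested.

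Sequences upstream of 4 members are shown, chosen by their ratios. Bad, Bid and Bcl2l1 were the members that counted as at least 2-fold lower under OGD in knockdown cells. Under OGD Bcl2l11 had the largest ratio to the Neat1 lentivirus among members past the floor. Each is the 250 bases before a RefSeq start (GRCm38.p6), 5′ to 3′ on the gene's strand. Capitals mark GCGTG, one core of the hypoxia response element, on either strand (CACGC on the strand shown), and GTAAACA, a forkhead box O element. They lie at chr19:6941611-6941860 (Bad, plus strand), chr6:120916825-120917074 (Bid, minus), chr2:152831729-152831978 (Bcl2l1, minus) and chr2:128125788-128126037 (Bcl2l11, plus).
Bad: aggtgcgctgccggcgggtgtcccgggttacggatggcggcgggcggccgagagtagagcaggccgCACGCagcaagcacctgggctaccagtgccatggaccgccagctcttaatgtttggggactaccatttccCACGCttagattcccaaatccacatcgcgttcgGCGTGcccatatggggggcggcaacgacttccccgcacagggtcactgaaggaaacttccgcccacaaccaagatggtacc
Bid: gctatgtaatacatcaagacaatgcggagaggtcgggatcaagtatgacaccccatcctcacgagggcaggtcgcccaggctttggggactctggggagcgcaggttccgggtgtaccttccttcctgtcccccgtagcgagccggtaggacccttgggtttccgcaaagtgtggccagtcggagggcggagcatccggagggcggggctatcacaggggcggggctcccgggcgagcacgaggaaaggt
Bcl2l1: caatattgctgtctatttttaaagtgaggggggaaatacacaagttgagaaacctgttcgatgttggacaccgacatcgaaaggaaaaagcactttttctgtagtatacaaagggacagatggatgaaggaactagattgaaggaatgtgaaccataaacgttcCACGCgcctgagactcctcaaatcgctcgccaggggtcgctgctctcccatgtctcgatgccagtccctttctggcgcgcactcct
Bcl2l11: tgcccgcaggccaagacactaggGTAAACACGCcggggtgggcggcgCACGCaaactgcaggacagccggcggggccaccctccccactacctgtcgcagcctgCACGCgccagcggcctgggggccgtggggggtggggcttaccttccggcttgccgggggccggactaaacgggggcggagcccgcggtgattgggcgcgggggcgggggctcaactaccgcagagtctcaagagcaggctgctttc
Where a gene had several windows, the one shown ends at the start of the annotated gene. The Bad window shown held GCGTG 3 times and a second Bad window held it once. The Bcl2l1 window shown held it once and 2 other Bcl2l1 windows held no motif searched. The only Bid window held none. The Bcl2l11 window shown held GCGTG 3 times and GTAAACA once, and the GTAAACA overlaps the first CACGC, so the run GTAAACACGC is both. The other Bcl2l11 window held no motif. Across 32851 such windows of all genes, 28.2% held GCGTG, 16.6% held ACGTG (the other core searched), 3.17% held GTAAACA and 3.45% held TGATGNAA, the composite ATF4-CHOP element. Of 15 windows of 9 members, 4 held GCGTG, 1 held ACGTG (Bax), 1 held GTAAACA and 0 held TGATGNAA. The table of windows gave none for Pmaip1. A match is a stretch of letters and not a measured site.

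The effectors were the most abundant members in every library. To compare genes, the deposited length-normalised values were used, which were read as FPKM although the tables do not name their unit. The gene lengths these values imply were shorter than the annotated exonic lengths, for example 756 to 799 bases against 2558 for Bad and 2278 to 2560 against 3418 for Mcl1, so each order was also taken from CPM per annotated exonic kilobase. The effectors held the first and second place in all 4 libraries on both scales. Bax, which moves from the cytosol to mitochondria when activated, stood at 190 FPKM in knockdown OGD, 203 in control OGD, 203 in knockdown normal and 194 in control normal cells. Bak1, which encodes BAK, resident in the outer membrane, stood at 99.4, 132, 157 and 218 FPKM in the same order, so in FPKM it was above Bax in control normal cells only. Per annotated kilobase Bak1 was above Bax in all libraries but knockdown OGD, so the order of the effectors depended on the length used. Summed by role, the effectors reached 290, 334, 360 and 412 FPKM, the 3 anti-apoptotic genes 71.0, 66.6, 115 and 94.7 FPKM, and the 5 BH3-only genes 48.1, 52.9, 133 and 125 FPKM. In FPKM the BH3-only sum was above the anti-apoptotic sum in both normal libraries and below it in both OGD libraries. Per annotated kilobase it was below in all 4, at 16.7, 20.3, 45.5 and 40.7 CPM per kilobase against 41.9, 48.6, 67.5 and 52.6, so that crossing depended on the length used. Bad made up most of the BH3-only sum, with 32.7 and 39.9 FPKM under OGD and 104 and 95.04 FPKM in normal culture, knockdown cells first in each pair.

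Mcl1 and Bad followed the effectors in every library. In FPKM Mcl1 was above Bad under OGD (46.0 and 32.7 FPKM in knockdown cells, 43.4 and 39.9 FPKM in control cells) and Bad was above Mcl1 in normal culture (104 and 79.9 FPKM in knockdown cells, 95.04 and 64.4 FPKM in control cells). Per annotated kilobase Mcl1 was above Bad in all 4 libraries, so the switch in order was present on the FPKM scale only. In control OGD cells the FPKM counting intervals of Mcl1 and Bad overlapped. Bcl2, Bcl2l1 and Bid lay between 8.86 and 24.0 FPKM in all libraries, and in FPKM Bid could not be told from Bcl2l1 within counting error in knockdown OGD, knockdown normal or control normal cells. In control OGD cells Bcl2l1, Bcl2 and Bid stood at 11.7, 11.4 and 10.99 FPKM with overlapping intervals between neighbours. Bcl2l11 came eighth in all libraries on both scales, at 1.97 to 6.30 FPKM. Bmf and Pmaip1 were at or below 0.44 FPKM everywhere.

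**Figure D1:**
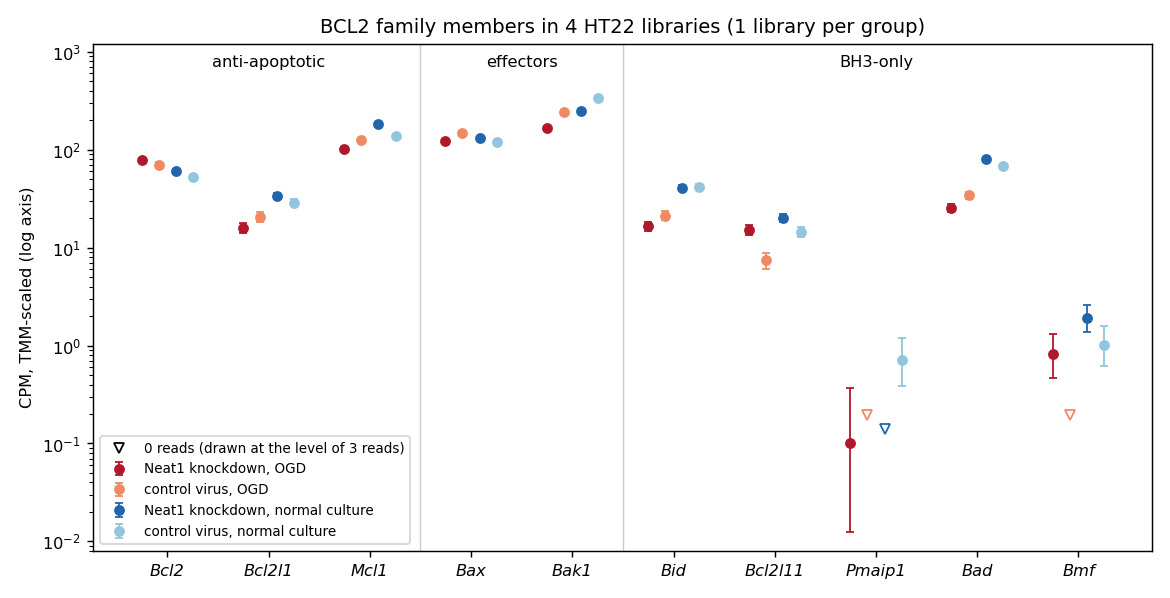
Level of each member in CPM (TMM-scaled, log axis) in the 4 libraries, 1 point per library, with exact 95% Poisson intervals and open triangles where a gene had 0 reads (drawn at the level of 3 reads). Bax and Bak1 sit at 121 CPM or higher in all libraries, and Pmaip1 and Bmf sit below 2 CPM. Bad, Bid, Bcl2l1, Mcl1, Bak1 and Bmf sit lower in both OGD libraries than in both normal ones.

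Among the anti-apoptotic genes, Bcl2 was higher and Bcl2l1 lower under OGD. Bcl2, the founding member of the family, stood at 78.8 CPM in knockdown OGD and 70.5 in control OGD cells, and at 60.8 in knockdown normal and 52.4 in control normal cells. Both OGD libraries were thus above both normal libraries, and within each culture the knockdown library was the higher one. The OGD ratio was 0.37 in knockdown cells (1.29-fold, interval 1.20 to 1.39) and 0.43 in control cells (1.35-fold, 1.24 to 1.47), both under 2-fold. The knockdown ratio was 0.16 under OGD and 0.21 in normal culture.

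Bcl2l1, whose long product BCL-XL protects mature neurons, stood at 15.9 CPM in knockdown OGD and 20.6 in control OGD cells, against 33.5 in knockdown normal and 28.6 in control normal cells. It was 2.11-fold lower under OGD in knockdown cells (log2 ratio -1.05, interval 1.84 to 2.42) and 1.39-fold lower in control cells (-0.46, interval 1.21 to 1.60). Values are per gene, so the long and short splice products, which act in opposite ways, are summed. The lentivirus ratio of Bcl2l1 was -0.37 under OGD and 0.22 in normal culture.

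Mcl1, which encodes a short-lived protein that holds BAK, stood at 102 CPM in knockdown OGD and 124 in control OGD cells, against 183 in knockdown normal and 139 in control normal cells. Its highest level was in knockdown normal cells, and both OGD libraries lay below both normal ones. Its OGD ratio was -0.84 in knockdown cells (1.79-fold lower, 1.70 to 1.89) and -0.16 in control cells (1.12-fold lower, 1.05 to 1.18). Its knockdown ratio was -0.28 under OGD and 0.40 in normal culture. In the deposited FPKM the ratio under OGD was 0.08, so the direction of Mcl1 there was not the same on both scales.

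The effectors stayed under the 2-fold limit in every comparison. Bax stood at 122 CPM in knockdown OGD, 148 in control OGD, 131 in knockdown normal and 121 in control normal cells, a range of 0.29 on the log2 scale. Its OGD ratio was -0.11 in knockdown cells and 0.29 in control cells, and its knockdown ratio -0.28 under OGD and 0.11 in normal culture. Bak1 stood at 167 CPM in knockdown OGD and 244 in control OGD cells, against 251 in knockdown normal and 337 in control normal cells. Bak1 was the member lower in all 4 comparisons by more than counting error, by 0.54 with the Neat1 lentivirus under OGD, by 0.43 with it in normal culture, by 0.58 with OGD in knockdown cells and by 0.47 with OGD in control cells, on the log2 scale. Exons of Bak1 share 437 bases with Ggnbp1 on the other strand, which held 77 to 174 reads per library, against 3279 to 6606 for Bak1.

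Among the BH3-only genes, Bad and Bid were lower under OGD in both kinds of cell. Bad encodes a sensor that binds BCL2 and BCL-XL unless phosphorylated and held by 14-3-3 proteins. It stood at 25.4 CPM in knockdown OGD and 34.2 in control OGD cells, against 79.4 in knockdown normal and 68.2 in control normal cells. The 2 OGD libraries lay well below the 2 normal ones. It was 3.12-fold lower under OGD in knockdown cells (log2 ratio -1.62, interval 2.82 to 3.46), the lowest ratio of any member there. In control cells it was 1.99-fold lower (-0.99, interval 1.80 to 2.21), just short of the 2-fold limit. Exons of Bad share 524 bases with Gpr137 on the other strand, and whether counting used strand is not given in the sources used here. Gpr137 held 180 and 141 reads under OGD and 629 and 660 in normal culture (knockdown cells first), and its OGD ratio was -1.62 in knockdown and -1.82 in control cells, so reads of the 2 genes may not be separable.

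Bid, whose product is cut by caspase-8 and then activates BAX and BAK, stood at 16.5 CPM in knockdown OGD and 21.2 in control OGD cells, against 41.1 in knockdown normal and 41.7 in control normal cells. Its OGD ratio was -1.29 in knockdown cells (2.48-fold lower, 2.18 to 2.83) and -0.96 in control cells (1.97-fold lower, 1.73 to 2.25). Within normal culture the 2 lentiviruses gave the same level within counting error (ratio -0.02). Exons of Bid share 628 bases with Bcl2l13 on the other strand, a family member whose OGD ratios were of the other sign, 0.72 in knockdown and 0.46 in control cells. Bcl2l13 held 946 and 687 reads under OGD and 624 and 634 in normal culture (knockdown cells first). Bid held 324 and 326, and 882 and 818, in the same order, so reads of the 2 genes may not be separable.

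Bcl2l11 encodes BIM, a BH3-only protein made on demand in stressed neurons. Under OGD it was the member with the largest ratio to the Neat1 lentivirus among those past the floor. It stood at 15.2 CPM (297 reads) in knockdown OGD and 7.41 CPM (114 reads) in control OGD cells, against 20.1 CPM (432 reads) in knockdown normal and 14.5 CPM (285 reads) in control normal cells. The control OGD library stood alone at the low end, and in CPM knockdown cells were higher in both cultures. In FPKM the normal libraries stood level, at 5.42 in knockdown and 5.41 in control cells, and the length implied for Bcl2l11 varied between 2472 and 3839 bases over the libraries. With the Neat1 lentivirus it was 2.05-fold higher under OGD (interval 1.64 to 2.56) and 1.38-fold higher in normal culture (1.19 to 1.61). With 0.5 CPM added the first ratio was 0.99 on the log2 scale, so it fell just short of the call, and the second was 0.46. The difference between the 2 log2 ratios was 0.53 and was not tested. Under OGD it was lower by 0.93 in control cells and by 0.40 in knockdown cells. In the deposited FPKM the last ratio was 0.20, a higher level under OGD, so the direction of Bcl2l11 in knockdown cells depended on the scale.

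The other BH3-only genes were near the floor. Bmf, whose product is tethered to the actin cytoskeleton through dynein light chain 2 in healthy cells, had 16 reads in knockdown OGD and 0 in control OGD cells, against 41 in knockdown normal and 20 in control normal cells. Set against 3 reads in place of 0, it was at least 5.23-fold lower under OGD in control cells, while its exact 95% interval began at 3.87-fold, and it was the only member at least 2-fold lower there. In knockdown cells it was 2.34-fold lower under OGD, with an interval of 1.28 to 4.46. With 0.5 CPM added that log2 ratio was -0.87, so it did not count as lower. The 16 reads against 0 under OGD were below the floor. With the Neat1 lentivirus in normal culture Bmf was 1.87-fold higher (interval 1.07 to 3.37), a log2 ratio of 0.66 with 0.5 CPM added. Pmaip1, which encodes NOXA, a partner of MCL1, had 2, 0, 0 and 14 reads in knockdown OGD, control OGD, knockdown normal and control normal cells and passed the floor in no comparison. Its 14 reads stood in the library with the most reads of neuron markers, and a link with those markers was not tested.

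With OGD in knockdown cells, 3 of the 9 members past the floor counted as at least 2-fold lower (Bcl2l1, Bid and Bad) and 0 as higher. By that rule 16.9% of 14071 genes were lower and 19.1% were higher. Bmf was 2.34-fold lower there without the added 0.5 CPM, but its log2 ratio with it was -0.87. The members' median log2 ratio was -0.84, against -0.002 for all genes, and 8 of 9 lay below 0, with Bcl2 the exception. In control cells OGD gave 1 of 9 members lower (Bmf) and 0 higher, against 22.2% and 9.36% of 14101 genes, with a median of -0.47 against -0.11 and 7 of 9 below 0. Bad, Bid and Bcl2l11 stood just short of 2-fold there, at -0.99, -0.96 and -0.93, and all passed it when libraries were scaled by total counts, which gave 4 of 9 lower. That scaling moved the median of all genes by -0.23 in this comparison, and the higher genes were then 18.5% of all called, against 29.7% with TMM. In FPKM the order of the 2 medians turned round, with -0.66 in knockdown and -0.73 in control cells. With 9 members, these counts were not taken as different from the shares over all genes.

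**Figure D2:**
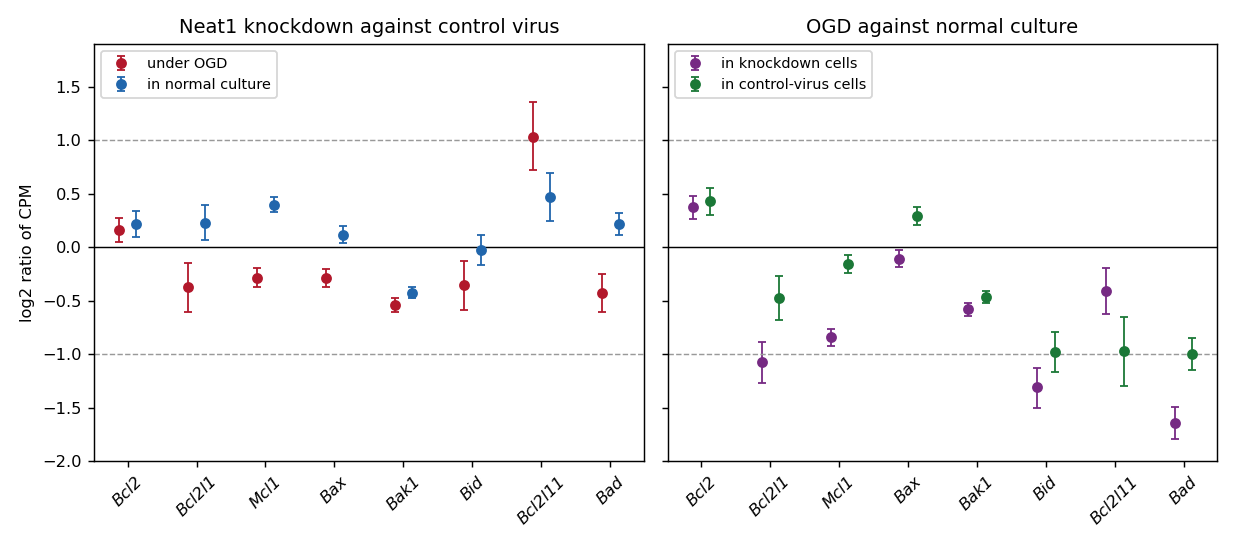
Log2 ratio of CPM of the 8 members with at least 100 reads in every library, with 95% counting intervals, without the added 0.5 CPM (left, Neat1 lentivirus against control lentivirus under OGD and in normal culture, right, OGD against normal culture in knockdown and control cells). Dashed lines mark 2-fold, Bad reaches the lowest OGD ratio in knockdown cells, and Bcl2l11 has the highest lentivirus ratio under OGD.

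By the call as defined, no member passed 2-fold with the Neat1 lentivirus in either culture, and Bcl2l11 under OGD was at the limit. It was 2.05-fold higher without the added 0.5 CPM, and it passed under 5 of 9 alternatives. Under OGD 0 of 8 members were higher and 0 lower, where 10.7% of 13388 genes were higher and 4.23% lower. The median was -0.32, against -0.0007 for all genes, and 6 of 8 lay below 0, the exceptions being Bcl2 and Bcl2l11. Total counts moved the median of all genes in this comparison by 0.19 and the members' median to -0.12. With that scaling Bcl2l11 passed 2-fold (log2 ratio 1.18), and higher genes were 82.3% of all called, against 71.7% with TMM. In normal culture 0 of 9 were higher and 0 lower, where 6.25% of 14554 genes were higher and 16.3% lower. The median there was 0.22, against -0.03 for all genes, and 7 of 9 lay above 0. With TMM, Bcl2l1, Mcl1, Bax and Bad thus had ratios below 0 under OGD and above 0 in normal culture. The differences were -0.59, -0.68, -0.40 and -0.64, none as large as 1 and none tested. In the deposited FPKM the Mcl1 ratio under OGD was 0.08, so the pattern did not hold for Mcl1 there. Bcl2l1, Bax and Bad kept both signs under every alternative, though under OGD Bax came as near to 0 as -0.08.

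**Figure D3:**
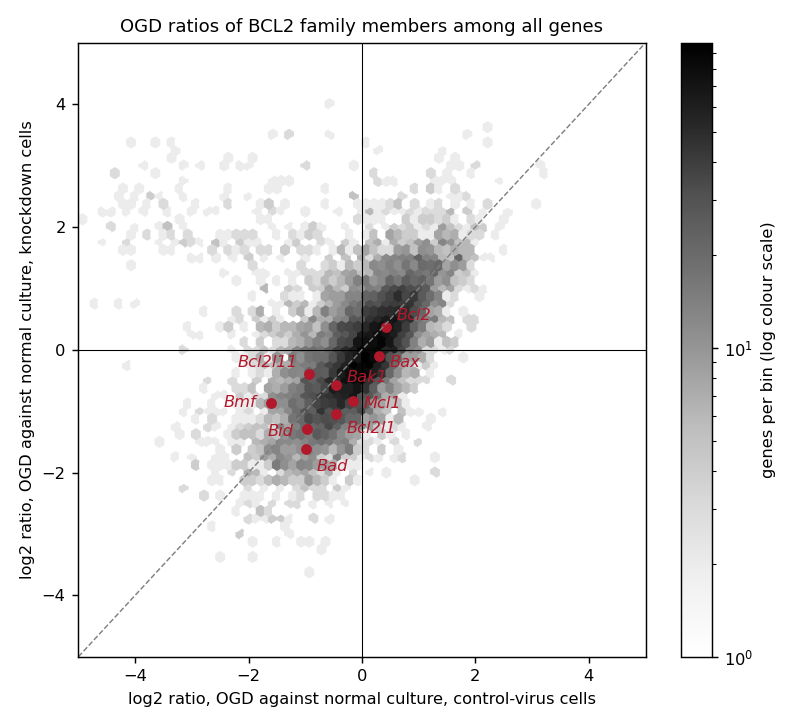
Log2 ratio of OGD to normal culture in control cells (horizontal) and knockdown cells (vertical) for 12943 genes past the floor in both, as bins shaded by number of genes on a log colour scale, with 9 members as red points and the dashed line marking equal ratios. Axes end at 5 either way, which leaves 143 genes outside, and all members drawn except Bcl2l11 and Bmf lie below the dashed line.

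Ratios of reads between members of 1 library do not depend on scaling. Of the 3 pairs chosen after their values were seen, Bcl2 per Bax read was 0.647 in knockdown OGD and 0.475 in control OGD cells, against 0.464 in knockdown normal and 0.433 in control normal cells. The knockdown OGD library stood above the other 3. The ratio was 1.36 times higher with the Neat1 lentivirus under OGD (interval 1.24 to 1.499) and 1.07 times in normal culture, where the interval, 0.972 to 1.18, took in 1. Mcl1 per Bak1 read was 0.610 in knockdown OGD and 0.511 in control OGD cells, against 0.730 in knockdown normal and 0.413 in control normal cells. It was 1.77 times higher with the Neat1 lentivirus in normal culture (1.67 to 1.88) and 1.19 times under OGD (1.10 to 1.29). Bcl2l1 per Bad read was 0.624 and 0.603 under OGD and 0.422 and 0.420 in normal culture, knockdown cells first. Here culture separated the libraries, with an OGD ratio of 1.48 in knockdown cells (1.25 to 1.75) and 1.44 in control cells (1.21 to 1.70), and the lentivirus did not beyond counting error.

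**Figure D4:**
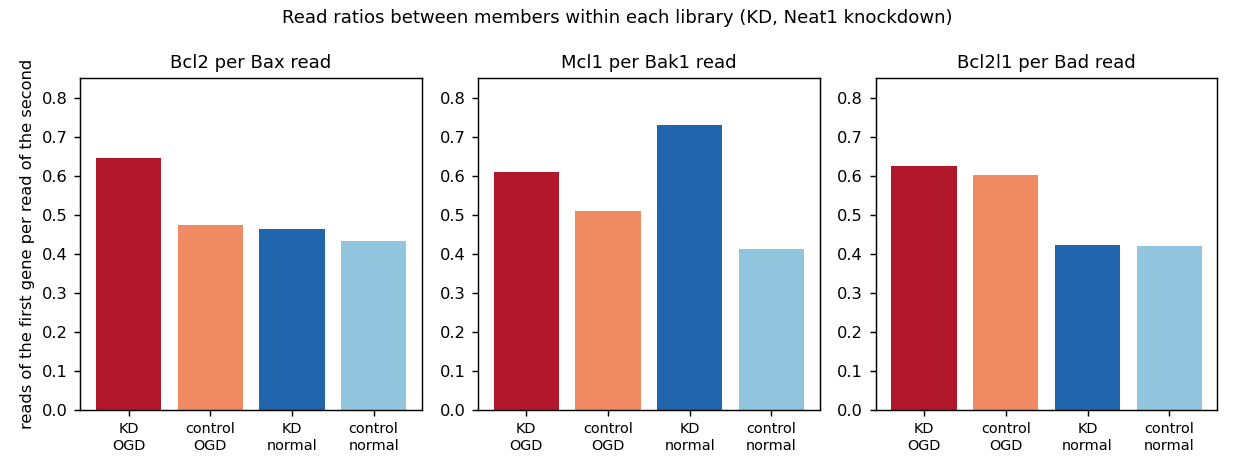
Reads of one member per read of another within each of the 4 libraries (left, Bcl2 per Bax, middle, Mcl1 per Bak1, right, Bcl2l1 per Bad). Bars are single libraries without error bars, Bcl2 per Bax is highest at 0.647 in knockdown OGD cells, and Bcl2l1 per Bad is above 0.6 in both OGD libraries and near 0.42 in both normal ones.

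Genes with the most alike pattern over the 4 libraries were taken as those at the smallest Euclidean distance between centred log2 CPM, among 8510 protein-coding genes with at least 100 reads in every library, for the 5 members with a range of at least 2-fold. For Bad they were Dusp14 (distance 0.074) and Foxred1 (0.087), for Bid S100a1 (0.023) and Tmcc1 (0.038), and for Bcl2l1 Syde1 (0.030) and Rbm8a (0.054). Bak1 was nearest to Grasp (0.042) and Nfic (0.044). For Bcl2l11 the nearest, Gpd1l (0.14) and Apbb2 (0.16), lay further off. The 100th nearest gene lay at 0.18 to 0.46 for these members, so with 4 libraries many genes share each pattern.

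Outside the 10, the strongest OGD ratios of the family belonged to genes of mitochondrial turnover. Bnip3 and Bnip3l, atypical members known as hypoxia-induced mitophagy receptors, were 22.8-fold and 8.77-fold higher under OGD in knockdown cells and 16.4-fold and 5.71-fold higher in control cells. Bbc3, encoding PUMA, a BH3-only protein induced by p53, had a log2 ratio of 1.13 in knockdown and 0.80 in control cells. Bok, an effector-like member, was 2.48-fold lower under OGD in knockdown cells and 1.55-fold lower in control cells. Of 16 other family genes listed, 10 had reads. Under OGD 3 were higher and 2 lower of 8 past the floor in knockdown cells, where 19.1% and 16.9% of all genes were. In control cells 2 were higher and 0 lower of 7, where 9.36% and 22.2% of all genes were. With the Neat1 lentivirus 0 of 7 passed 2-fold under OGD (10.7% higher and 4.23% lower among all genes), and 1 of 8 was higher in normal culture, Bik, a BH3-only gene with 25 reads against 0 (at least 7.61-fold against 3 reads, with an exact 95% interval beginning at 5.74-fold), where 6.25% of all genes were higher and 16.3% lower.

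Downstream of the mitochondria act caspases, their inhibitors and cofactors. Of 23 genes of the caspase and inhibitor stage, 1 was higher and 3 lower of 21 past the floor with OGD in knockdown cells, and 0 were higher and 4 lower of 23 in control cells, with medians of -0.01 and -0.38. The shares over all genes were 19.1% higher and 16.9% lower in knockdown cells, and 9.36% and 22.2% in control cells. Cycs, which encodes the cytochrome c released through the pores, was 2.84-fold lower under OGD in knockdown cells. It was also lower under OGD in control cells, by less than 2-fold. With the Neat1 lentivirus 1 was higher and 2 lower of 23 under OGD (10.7% and 4.23% of all genes), and 0 higher and 4 lower in normal culture (6.25% and 16.3%). Casp9, the caspase activated on the apoptosome, had 1 read in knockdown OGD and 134 in control OGD cells (171-fold, interval 30.1 to 6786), against 102 in knockdown normal and 242 in control normal cells. Birc5, encoding survivin, was 3.54-fold lower with the Neat1 lentivirus under OGD. Apart from Casp9, Birc5 and Birc2 (2.21-fold higher, 121 against 43 reads), no gene of this list passed 2-fold between the lentiviruses under OGD.

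Among upstream regulators of the family, Pim1 and Ddit3 were higher under OGD in both kinds of cell. Of 26 genes, 10 were higher and 2 lower with OGD in knockdown cells, and 9 higher and 2 lower in control cells, with medians of 0.42 and 0.20. Of all genes 19.1% were higher and 16.9% lower by the same rule in knockdown cells, and 9.36% and 22.2% in control cells. Pim1, a kinase that phosphorylates BAD, was 8.16-fold higher under OGD in knockdown cells and 8.80-fold in control cells. Ddit3, which encodes the stress factor CHOP, was 4.26-fold and 6.74-fold higher in the same order. Jun, a factor that drives Bcl2l11 in neurons, was 9.17-fold higher under OGD in knockdown cells, with a log2 ratio of 1.41 in control cells. Mdm2 was 5.39-fold higher in knockdown cells, and Atf4 4.02-fold and Trib3 4.93-fold higher in control cells. Each of these genes also passed 2-fold in the other kind of cell. Between the lentiviruses 0 of 26 passed 2-fold under OGD, where 10.7% of all genes were higher and 4.23% lower. In normal culture 1 of 26 did, where 6.25% were higher and 16.3% lower. This was Trim17, which was 2.92-fold lower (log2 ratio -1.43) and encodes a ubiquitin ligase for MCL1 in neurons. Under OGD its knockdown log2 ratio was 0.46. Its reference in normal culture was the control library with 2006 CPM of neuron markers, and the part of that difference was not tested.

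**Figure D5:**
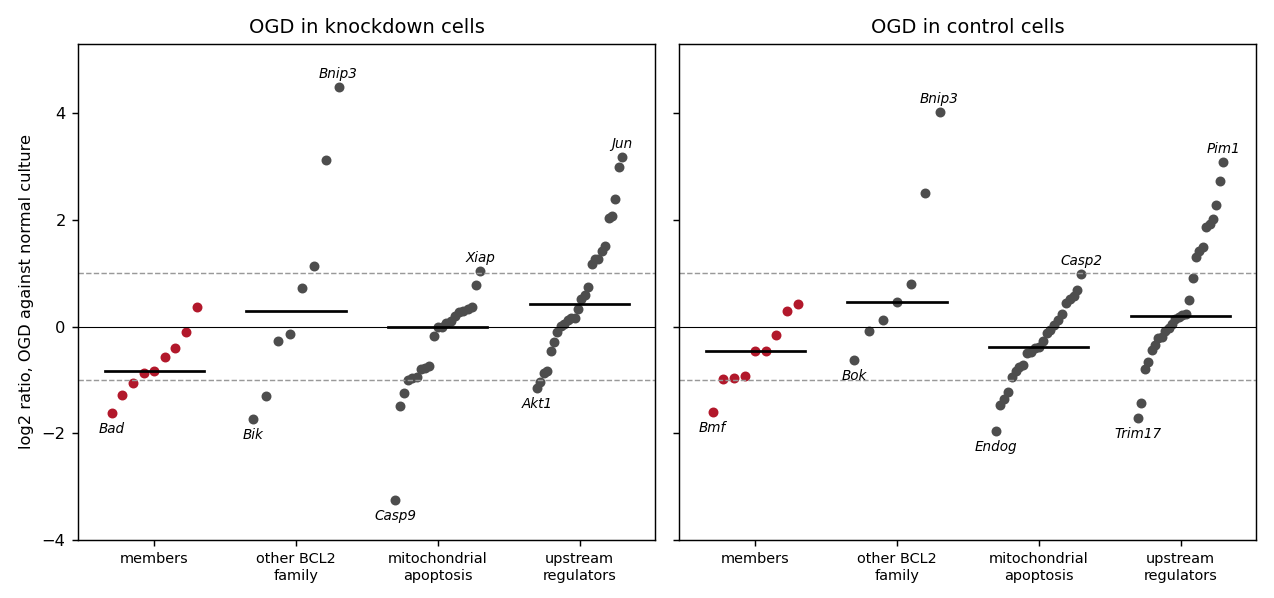
Log2 ratio of OGD to normal culture in knockdown cells (left) and control cells (right) for the members (red) and 3 lists of related genes (grey), 1 point per gene past the floor, with a bar at each list's median and dashed lines at 2-fold. The members' medians are -0.84 and -0.47, and Bnip3 has the highest ratio in both panels.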

How the data were processed

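Gene expression was measured in HT22 cells by RNA sequencing, with 1 library for each of 4 groups. Per the labels' protocols, TRIzol-isolated total RNA was fragmented, and PCR followed dUTP labelling of a cDNA strand. Reads were aligned with TopHat2 to mm10, per the submitters' processing notes. Counter, annotation and strand setting: not given in the sources used here. The authors deposited 4 pairwise tables with a size-factor scaled count per library (a signal, per the file headers), adjusted p-values, and length-normalised values with no unit named, which were read as FPKM from the deposited values.

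Each deposited scaled count is a whole count divided by 1 factor, so reads were recovered. Within 1e-06 of a read, 147282 of 147282 values (100%) were whole numbers, and 69779 of 69779 values held in both tables of a library gave the same reads. A count test on these reads was not run and so called no gene, as each group holds 1 library. TMM factors from edgeR 4.0.16 (R 4.3.3) were 1.03, 0.893, 1.03 and 1.05 in knockdown OGD, control OGD, knockdown normal and control normal libraries. Ratios used CPM plus 0.5 CPM, which understates low genes, a floor of 20 reads in the higher library and a 2-fold limit. Intervals are exact at 95% (conditional binomial or Poisson). Python 3.11.15, numpy 2.4.6, pandas 2.3.3, scipy 1.17.1 and matplotlib 3.10.9 were used, with GENCODE mouse annotation and RefSeq promoters of GRCm38. Levels per annotated exonic kilobase, added after seeing the data, divide CPM by the union of a gene's annotated exons. The rule and intervals were tested on simulated counts that held counting (Poisson) error only. That test does not cover spread between libraries, so it does not show how often the rule errs with 1 library per group.

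Members, lists and pathway genes were chosen with earlier results of these data known. All members are named. From each other list, up to 4 genes per comparison with the largest ratio could be named, and Bad, Bid, Bcl2l1, Bcl2l11 and Bak1 met the rule for alike genes. Alternatives tried were other scalings (total counts, with and without the 7 listed RNAs lacking a poly(A) tail, and DESeq2 median-of-ratios factors), 0.1 or 2 CPM added, other floors and the deposited FPKM. One more, chosen after seeing the data, recomputed TMM without 1699 genes at least 2-fold higher in the control normal library than in each other library.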

Additional observations from a re-analysis of the deposited data

Results flagged for a closer look

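No member of the 10 was singled out by having knockdown ratios that differ in sign between cultures, each beyond counting error, and by at least 1 on the log2 scale. Among the related genes 5 were, and none of these differences was tested, since each rests on 4 single libraries. Xiap, a caspase inhibitor, had a knockdown log2 ratio of 0.36 under OGD and -1.07 in normal culture, a difference of 1.43. Birc2, also an inhibitor of apoptosis gene, had 1.02 and -0.66, a difference of 1.68, from 43 to 170 reads per library. Jun had 0.83 and -0.93, a difference of 1.77, and Foxo3, a forkhead factor that drives Bcl2l11, had 0.53 and -0.81, a difference of 1.34. Trib3, an ATF4 target that restrains AKT, went the other way, with -0.30 under OGD and 0.82 in normal culture, a difference of -1.12. In the first 4 the control normal library, which held 2006 CPM of neuron markers, was above the knockdown normal library, and the part of that difference was not tested.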

How the results depend on the processing

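No paired analysis was possible because each group holds 1 library, and for the same reason no library could be left out. Of 200 member ratios under the 5 alternatives that can change a sign, 197 kept it (the added value and the floor cannot change one). The exceptions were Bcl2l11 with OGD in knockdown cells and Mcl1 with knockdown under OGD in the deposited FPKM (0.20 and 0.08), and Bid with knockdown in normal culture under median-of-ratios factors (0.02). For knockdown under OGD, the count of 0 members past 2-fold became 1 with total counts, total counts without RNAs lacking a poly(A) tail, 0.1 CPM added, FPKM and the TMM factors chosen after seeing the data (Bcl2l11 in each), and 1 with no floor (Bmf). Its median became -0.12 with total counts, -0.18 without those RNAs and -0.12 in FPKM. For OGD in control cells, the count of 1 became 4 with total counts, 4 without those RNAs, 3 in FPKM, 2 with no floor, 2 with the added TMM factors, and 0 with 2 CPM added or a floor of 100 reads. Its median became -0.71, -0.66 and -0.73 with total counts, without those RNAs and in FPKM, and -0.70 with no floor. For OGD in knockdown cells the median became -0.58 with 2 CPM added, -0.71 with a floor of 100 reads, -0.71 with no floor and -0.66 in FPKM. In that comparison Bcl2l1 fell short of 2-fold with 2 CPM added (-0.99), and Bmf passed it with 0.1 CPM added (-1.13). With no floor, 1 member passed for knockdown in normal culture (Pmaip1, 14 reads). The number of members whose knockdown ratios differed by at least 1 between cultures was 0, and became 1 with no floor (Pmaip1) and 1 in FPKM (Bcl2l11, 1.46). For genes with few reads, such as Bmf and Pmaip1, depth limits what can be seen: a count of 0 in control OGD cells allows 0.195 CPM at 3 reads, and 0.240 CPM at the exact 95% limit.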
